A study of Mus musculus with 5 samples.

Results

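The genes described here encode the class II molecules of the mouse major histocompatibility complex (MHC) and the proteins that work with them: H2-Aa, H2-Ab1, H2-Ea, H2-Eb1, H2-DMa, H2-DMb1, H2-Oa, H2-Ob, Cd74 and Ciita. They were chosen by name, through the gene symbols of the array annotation. All 10 genes had at least 1 probe set with a single symbol, giving 11 probe sets of 12488 on the array, because H2-DMa had 2. One further probe set is listed for both H2-DMb1 and its neighbour H2-DMb2 and is given apart from the 11.

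Class II molecules are pairs of an alpha and a beta chain that carry peptides from the endosome to the cell surface, where CD4 T cells read them. H2-Aa pairs with H2-Ab1, and H2-Ea with H2-Eb1. Cd74 encodes the invariant chain, which fills the groove of new class II molecules and takes them to the endosome. H2-DM, a dimer of H2-DMa and H2-DMb1, then exchanges the remnant of the invariant chain for peptide, and H2-DO, a dimer of H2-Oa and H2-Ob, restrains H2-DM. Ciita encodes the transactivator that class II promoters need, and B cells are known to switch it off when they become plasma cells. H2-Ea is a gene that some mouse strains, the reference strain C57BL/6J among them, do not express.

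Class II promoters are known for an upstream X box, bound by the RFX complex, and a Y box, bound by NF-Y, at a set spacing. The sequences below show that pair in the promoters of the members for which a sequence was at hand, since such a pair is the known control element of class II genes. Of the 10 members, 6 had an entry among the RefSeq promoters of GRCm38.p6, each 250 bases before to 50 bases after a start site. Entries for H2-Ab1, H2-Ea, Cd74 and Ciita were not used here. The motifs searched, on both strands, were CNNGNAAC for the core of the X box and GATTGG for that of the Y box. Their letters were chosen with these sequences in view, and they do not overlap where both are printed. The pair was found in 5 members, on the strand of the gene, with 24 to 27 bases between the motifs, and it is in capitals:
H2-Aa: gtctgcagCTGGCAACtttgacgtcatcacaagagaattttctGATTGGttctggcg
H2-Eb1: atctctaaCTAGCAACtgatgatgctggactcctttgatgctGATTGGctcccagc
H2-DMb1: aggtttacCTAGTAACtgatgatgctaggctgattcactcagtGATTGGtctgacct
H2-Oa: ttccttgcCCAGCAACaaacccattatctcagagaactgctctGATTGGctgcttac
H2-Ob: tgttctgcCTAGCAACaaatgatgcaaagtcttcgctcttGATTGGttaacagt

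These stretches lie at chr17:34287859-34287915 on the minus strand for H2-Aa, and on the plus strand at chr17:34305765-34305820 for H2-Eb1, chr17:34153086-34153142 for H2-DMb1, chr17:34092292-34092348 for H2-Oa and chr17:34238807-34238860 for H2-Ob (GRCm38.p6). The Y motif began 49 bases before the start site in H2-Aa, 60 in H2-Eb1, 62 in H2-DMb1, 44 in H2-Oa and 58 in H2-Ob. Alone, each motif is common, with the X letters in 39.1% and the Y letters in 16.1% of 32851 promoters. Both on 1 strand at a gap of 24 to 27 bases were found in 15 promoters, or 0.0457%. That range of gaps was taken from the members themselves, so their place among the 15 was fixed by the search. The 15 also hold H2-Eb2, a relative of H2-Eb1 that is not among the members. The other 9 belong to genes outside class II, Stard7 and Ift74 among them. The 2 promoters listed for H2-DMa did not hold the pair. Both windows hold the X letters and 1 of them also the Y letters. What they lack is X followed by Y on 1 strand within the 60 bases searched.

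In all, 5 mouse cell cultures were measured, each on 1 Affymetrix array with polyadenylated RNA. Of these, 4 were derivatives of AxJ, a plasma cell line, kept in G418 after stable transfection with empty vector, with hnRNP-H, or with its relative hnRNP-F, both RNA-binding proteins. The hnRNP-F line is represented by subclones B5 and D6, chosen by western blot for high expression and for which the series states that less of the heavy chain message was in the secreted form relative to the membrane form. The fifth culture was A20, labelled as a memory B cell line, grown without G418, for which no transfection is named. The series names the empty vector, hnRNP-H and A20 arrays as the controls of the hnRNP-F clones. The labels give neither the mouse strain nor the H2 haplotype of AxJ or A20. Each array is 1 culture, with no repeat described. A difference in the share of expressing cells cannot be told apart from one in RNA per cell.

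Intensities below are quantile normalised, and no value of a member moved by more than 1.26-fold from the deposited one. RNA quality can be read from how the 5' Gapdh control probe set compares with the 3' one: this quotient was lowest with the empty vector (0.212) and in clone B5 (0.181), intermediate in A20 (0.384) and highest in clone D6 (0.683) and with hnRNP-H (0.866). Each difference is one of log2(intensity + 6.525), which understates the change of dim probe sets. Tests used limma across 9109 probe sets whose highest value exceeded 21.8, and "passed" means a Benjamini-Hochberg adjusted p under 0.05. All 11 probe sets were above that level on at least 1 array, but H2-Aa, H2-Ob and 1 of the 2 for H2-DMa only in A20.

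The B cell line was set against the AxJ plasma cell controls first. Of the 11 probe sets, 5 passed as higher in A20, against 2.9% of all probe sets tested, and none passed as lower, against 2.99%. Higher values thus made up 49.3% of all calls, and 65.4% when arrays were scaled to one median instead, where 5 of the 11 again passed. The 5 cover an alpha chain of each class II pair (H2-Aa and H2-Ea), the beta chain H2-Ab1 and both subunits of H2-DM. The median difference over the 11 was 2.37, with 10 of them above 0, beside a median of -0.04 over all probe sets tested. A20 lay above all 4 AxJ arrays for 10 of the 11, against 26% of all probe sets, and below all 4 for none, against 28.9%. It was at least 2-fold above the highest AxJ array for 8, against 6.06%. The 3 probe sets that reached the filter level only in A20 had to lie higher there, and they make up 1 of the 5, 3 of the 10 and 3 of the 8. Of the other 8 probe sets, 4 passed, 7 lay above all AxJ arrays and 5 were at least 2-fold above. The one probe set for which A20 did not lie above them was that of Ciita. The count of 5 fell to 2 without empty vector and to 3 without D6, where 5.11% and 3.41% of all probe sets passed in either direction, against 5.88% as reported. It was 2 (H2-Aa and H2-Ea) with no filter on dim probe sets (2.5% of all) and with no intensity trend in limma (1.59%). Against hnRNP-H and D6 alone it was 8, where 23.3% of all probe sets passed. That fit takes its spread from those 2 arrays alone, which carry different transfections, so no conclusion is drawn from the 8.

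**Figure D1:**
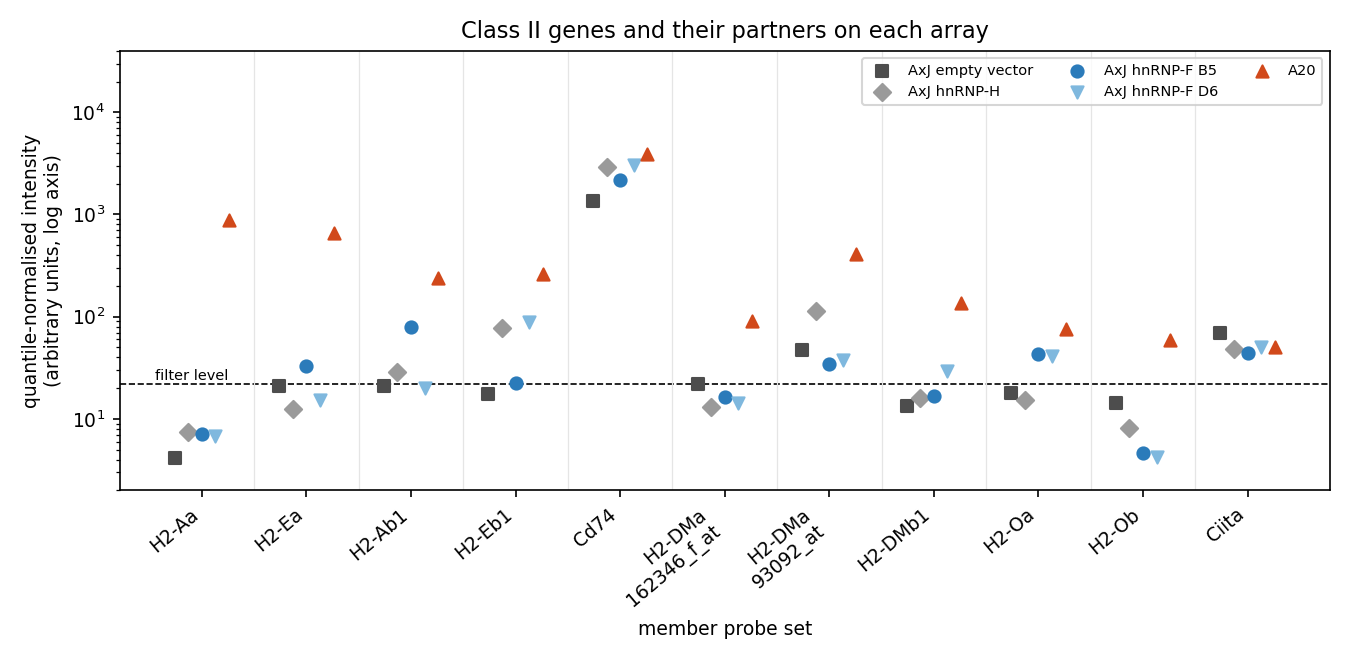
Quantile-normalised intensity (log axis) of the 11 member probe sets, 1 point per array, with the filter level of 21.8 as a dashed line. A20 is the highest array in every column but the last, where Ciita reads 50.6 in A20 and 69.0 in empty vector. Levels of different probe sets are not comparable with one another.

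H2-Aa, the alpha chain of the A pair, read 4.18 with the empty vector, 7.49 with hnRNP-H and 7.07 and 6.78 in clones B5 and D6, against 892 in A20. All 4 AxJ values lay under the filter level, and A20 alone was above it. The filter thus let H2-Aa into the test through A20. The difference from the controls was 6.20 (SE 0.59, 1 array against 2, limma adjusted p = 0.000987), and its size depends on the pseudocount, with values from 4.85 to 7.07 over the alternatives. With no filter, where entry did not depend on A20, the adjusted p was 0.00705. H2-Ea, the alpha chain of the E pair, read 21.0, 12.4, 32.9 and 15.3 in empty vector, hnRNP-H, B5 and D6 and 661 in A20. Its difference was 4.87 (SE 0.56, limma adjusted p = 0.0022) and passed under all 13 alternatives. A20 was thus 20.1 times the highest AxJ array, clone B5.

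Both beta chains were highest in A20, and 1 of them passed. H2-Ab1, the partner of H2-Aa, read 20.8 in empty vector, 29.0 in hnRNP-H and 20.1 in D6, but 78.4 in B5, and 239 in A20. A20 was thus 3.05 times the B5 value and clear of the other 3 AxJ arrays by more. The difference from the controls was 2.98 (SE 0.68, limma adjusted p = 0.0408). That call did not hold without empty vector (adjusted p = 0.111) or without hnRNP-H (0.0703). H2-Eb1, the partner of H2-Ea, read 17.5 in empty vector and 22.6 in B5, but 76.8 in hnRNP-H and 87.9 in D6, and 261 in A20. Its 4 AxJ values fell into a low and a high pair, 1 control in each, and the difference of 2.58 (SE 0.85, limma adjusted p = 0.131) did not pass. The high pair for H2-Eb1 consists of the 2 AxJ arrays with the higher Gapdh ratio. Against those 2 alone, 1 of them an hnRNP-F clone, the difference was 1.59. These 2 arrays carry different transfections and are close to each other for H2-Eb1. Their spread is therefore no measure of that among the AxJ arrays, and no test of H2-Eb1 is read from it. H2-Eb2 read between 1.15 and 4.07 on all 5 arrays, A20 included at 3.82.

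The peptide exchanger H2-DM rose through both subunits. The H2-DMa probe set 93092_at read 46.8 with the empty vector, 114 with hnRNP-H, 34.7 and 37.6 in clones B5 and D6, and 409 in A20. The hnRNP-H array stood above the other AxJ arrays, yet A20 was 3.60 times as high. The difference was 2.37 (SE 0.53, limma adjusted p = 0.0373), lost without empty vector (0.0571) or D6 (0.062). A second H2-DMa probe set, 162346_f_at, read 13.2 to 21.7 in the AxJ lines and 91.0 in A20. Its difference of 2.05 (SE 0.60, limma adjusted p = 0.0917) did not pass. Only A20 reached the filter level, so this probe set had to lie higher there. H2-DMb1 read 13.5 with the empty vector, 15.9 with hnRNP-H, 16.6 and 29.6 in clones B5 and D6, and 136 in A20. The difference was 2.75 (SE 0.58, limma adjusted p = 0.0287), which did not hold without empty vector (0.0613) or D6 (0.0524). The probe set shared by H2-DMb1 and H2-DMb2 read 1.02 to 1.28 in the AxJ lines and 39.7 in A20 (difference 2.61, SE 0.99, limma adjusted p = 0.187). This probe set, too, reached the filter level only in A20. The one for H2-DMb2 alone read 8.59 to 47.6 in the AxJ lines and 45.6 in A20, inside their range.

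The subunits of H2-DO, the restraint on H2-DM, were higher in A20 than on any AxJ array but did not pass. H2-Oa read 18.0 and 15.4 in the controls (empty vector first), 43.0 and 41.7 in clones B5 and D6, and 76.1 in A20. Its 2 hnRNP-F clones lay between the controls and A20. The difference of A20 from the controls was 1.83 (SE 0.51, limma adjusted p = 0.0802). H2-Ob read 14.4, 8.16, 4.64 and 4.23 in empty vector, hnRNP-H, B5 and D6 and 59.5 in A20, a difference of 1.91 (SE 0.75, limma adjusted p = 0.202). Its AxJ values all lay under the filter level.

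Cd74, the invariant chain, was far above the filter level in the plasma cell lines too. It read 1342 with the empty vector, 2938 with hnRNP-H, 2179 and 3033 in clones B5 and D6, and 3872 in A20. A20 was the highest array, but only 1.28 times D6. The difference from the controls was 0.96 (SE 0.45, limma adjusted p = 0.297). Without hnRNP-H, which leaves empty vector as the lone control, it was 1.52 (adjusted p = 0.0403), and without empty vector, which leaves hnRNP-H, 0.40 (0.555). As for H2-Eb1, the AxJ arrays with a higher Gapdh ratio, hnRNP-H and D6, were both above empty vector and B5. Over all probe sets tested, hnRNP-H and D6 lay above the other 2 AxJ arrays in 18% of cases and below them in 18.2%, and among the 11 in 2 cases each (below for H2-Ea and the dimmer H2-DMa probe set). The part of RNA integrity in these values was not tested.

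Ciita, the transactivator, read 69.0 with the empty vector, 48.0 with hnRNP-H, 43.9 and 50.3 in clones B5 and D6, and 50.6 in A20. The A20 value lay inside the AxJ range. The difference was -0.17 (SE 0.47, limma adjusted p = 0.9), with a 95% interval from -1.24 to 0.91. Its sign turned without empty vector (0.07). Which part of the transcript that probe set reads was not established here.

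**Figure D2:**
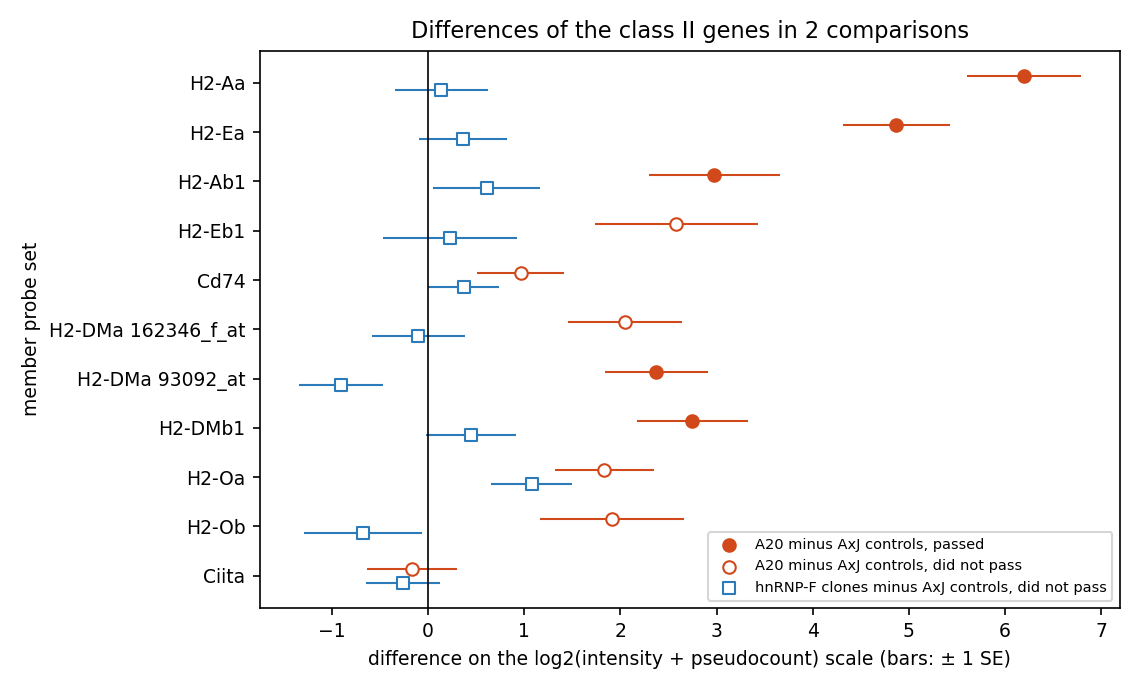
Differences of the 11 member probe sets on the log2(intensity + pseudocount) scale, with bars of 1 SE: A20 against the 2 AxJ controls (circles, filled where the test was passed) and the 2 hnRNP-F clones against the same controls (squares). The A20 differences run from -0.17 for Ciita to 6.20 for H2-Aa, while those of the clones stay between -0.91 and 1.08 and none passed.

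Of the members, 8 are neighbours on chromosome 17, and their region also holds genes of the class I pathway. In the order of the RefSeq annotation it starts with H2-Oa, Brd2, H2-DMa, H2-DMb2 and H2-DMb1, goes on with Psmb9, Tap1, Psmb8, Tap2 and H2-Ob, and ends with H2-Ab1, H2-Aa, H2-Eb1, H2-Eb2 and H2-Ea. Of these 15 genes with a probe set, 14 were tested (H2-Eb2 was under the filter). A20 lay above all 4 AxJ arrays for 13 of them, 8 members and 5 others, beside 26% of all probe sets. H2-Aa and H2-Ob reached the filter level only in A20, so these 2 members had to lie higher there. With the brightest probe set standing for each gene, 93092_at for H2-DMa, the differences of the 8 members ran from 1.83 to 6.20. Those of the 6 others ran from -0.03 to 1.81. Psmb8, a subunit of the immunoproteasome, which cuts peptides for class I, rose from 1133 and 747 in the controls, with 829 in B5 and 849 in D6, to 3236 in A20 (difference 1.81, SE 0.33, limma adjusted p = 0.0188; 0.131 with no intensity trend). Its neighbour Psmb9, another such subunit, read 388, 464, 427 and 561 in empty vector, hnRNP-H, B5 and D6 and 1085 in A20 (1.34, SE 0.33, limma adjusted p = 0.0529; 0.0468 without hnRNP-H). Tap1 and Tap2, which form the peptide transporter of class I, had differences of 0.78 and 0.74, but another Tap1 probe set one of -1.16. Brd2, a chromatin reader, differed by 0.61, with 177 in both B5 and A20, and H2-DMb2 by -0.03. None of these probe sets passed.

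**Figure D3:**
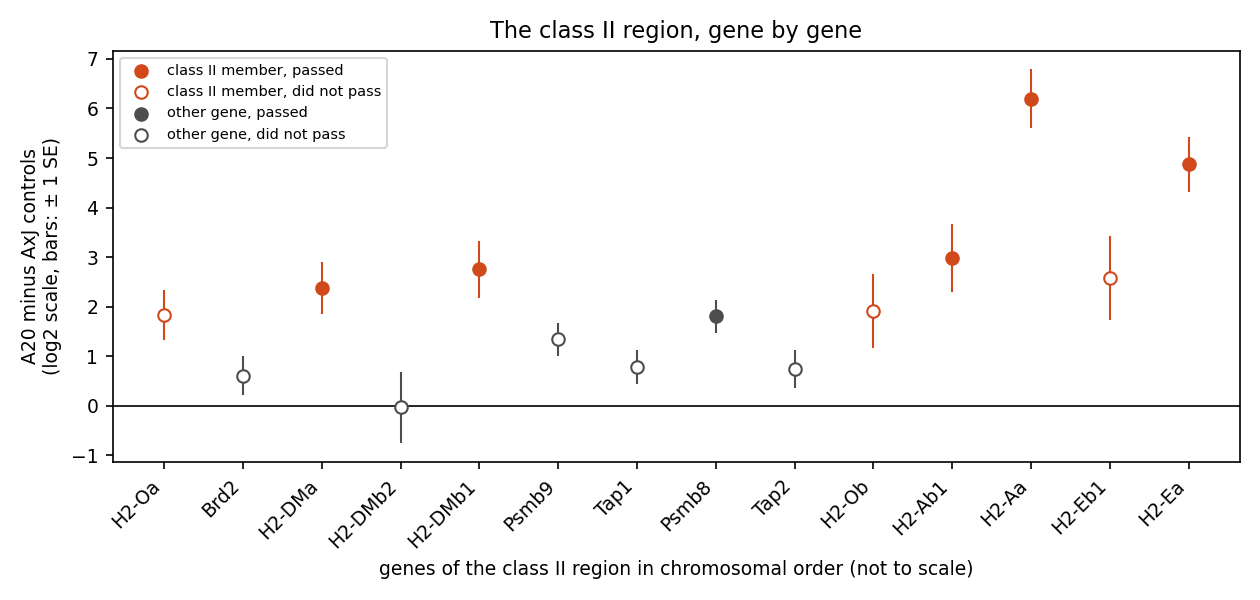
Difference between A20 and the 2 AxJ controls (log2 scale, bars of 1 SE) for 14 tested genes of the class II region, in chromosomal order and not to scale, with class II members in orange and other genes in grey, filled where the test was passed. The difference is 6.20 at H2-Aa and 4.87 at H2-Ea, and 1.81 at Psmb8, the one other gene that passed.

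The list of endosomal proteases, their inhibitors and the thiol reductase had a median difference of -1.10 over 10 genes tested. Of these, 1 rose in A20 and 3 fell, against 0 and 2 with no filter and 0 and 0 with no intensity trend. Ctsh, an endosomal aminopeptidase, rose from 8.30 with the empty vector, 32.7 with hnRNP-H and 17.2 and 44.5 in clones B5 and D6 to 353 (difference 3.90, limma adjusted p = 0.0183). Ctsb, a cysteine protease, fell from 957 and 1413 in the controls to 213 (-2.41, limma adjusted p = 0.00644), and Ctsz from 1046 and 1172 to 306 (-1.83, limma adjusted p = 0.0131). Ifi30, the reductase that opens disulphide bonds of antigens, fell from 693 and 712 to 261 (-1.41, limma adjusted p = 0.048), a call lost when any 1 AxJ array was left out (0.0696 to 0.105). Ctss, the protease that trims the invariant chain in B cells, named here after its value was seen, read 2749 with the empty vector, 1942 with hnRNP-H, 1741 and 1832 in clones B5 and D6, and 1090 in A20 (-1.08, limma adjusted p = 0.0902; 0.0347 without hnRNP-H).

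The transcription factors that meet at class II promoters showed no call among 9 tested, with a median of 0.27. The 2 with the largest statistic were Crebbp, a coactivator, at 2.13 (limma adjusted p = 0.0807; 0.0496 without empty vector) and Nfyb, a subunit of NF-Y, at 0.88 (limma adjusted p = 0.261). Rfxank, the RFX subunit with a probe set, differed by -0.38 (limma adjusted p = 0.664). Rfx5 and Rfxap had no probe set with a single symbol.

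Of 13 factors known to act on Ciita, 2 rose and 2 fell in A20, while Ciita itself did not pass in either direction. Prdm1, which encodes Blimp-1, the repressor of Ciita in plasma cells, read 157 with the empty vector, 92.2 with hnRNP-H, 99.1 and 105 in clones B5 and D6, and 3.16 in A20. Every AxJ value was above the filter level and the A20 value under it (difference -3.72, SE 0.47, limma adjusted p = 0.00368). Irf8 and Pax5, B cell transcription factors, rose by 2.85 and 2.86 (limma adjusted p = 0.0172 and 0.0153). With no filter both calls were lost (0.0536 and 0.0518), leaving 0 that rose and 1 that fell, and with no intensity trend that of Pax5 (0.0574), leaving 1 and 1. Irf4, which is high in plasma cells, fell by 1.94 (limma adjusted p = 0.033), and without hnRNP-H the difference was -1.61 with the call lost (0.0743). Spi1, which encodes PU.1, differed by 0.33 (limma adjusted p = 0.713).

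No gene of the 12 tested for costimulation and class II turnover passed (median 0.14). Cd40, the receptor for T cell help, read 2.28 with the empty vector, 16.4 with hnRNP-H, 12.8 and 32.1 in clones B5 and D6, and 115 in A20 (difference 3.10, limma adjusted p = 0.0578; 0.0366 without hnRNP-H). The adhesion gene Icam1 lay on the other side, at 96.4 and 150 in the controls and 27.2 in A20 (-1.91, limma adjusted p = 0.0653). Cd80 and Cd86, which bind CD28 on T cells, differed by 0.05 and 0.24. Class I genes lay on both sides of 0, and none of those named here passed: the brightest probe sets differed by -0.45 for H2-K1, -0.64 for H2-D1 and -0.99 for B2m, while another probe set of H2-K1 differed by 0.86. Tapbp, the tapasin gene of class I loading, fell by 1.52 (limma adjusted p = 0.0287). The difference was -1.42 without empty vector and -1.52 without B5 or D6, but the call was lost each time (0.0592, 0.0803 and 0.0912), and 2 further probe sets differed by -0.99 and -0.27 without passing.

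**Figure D4:**
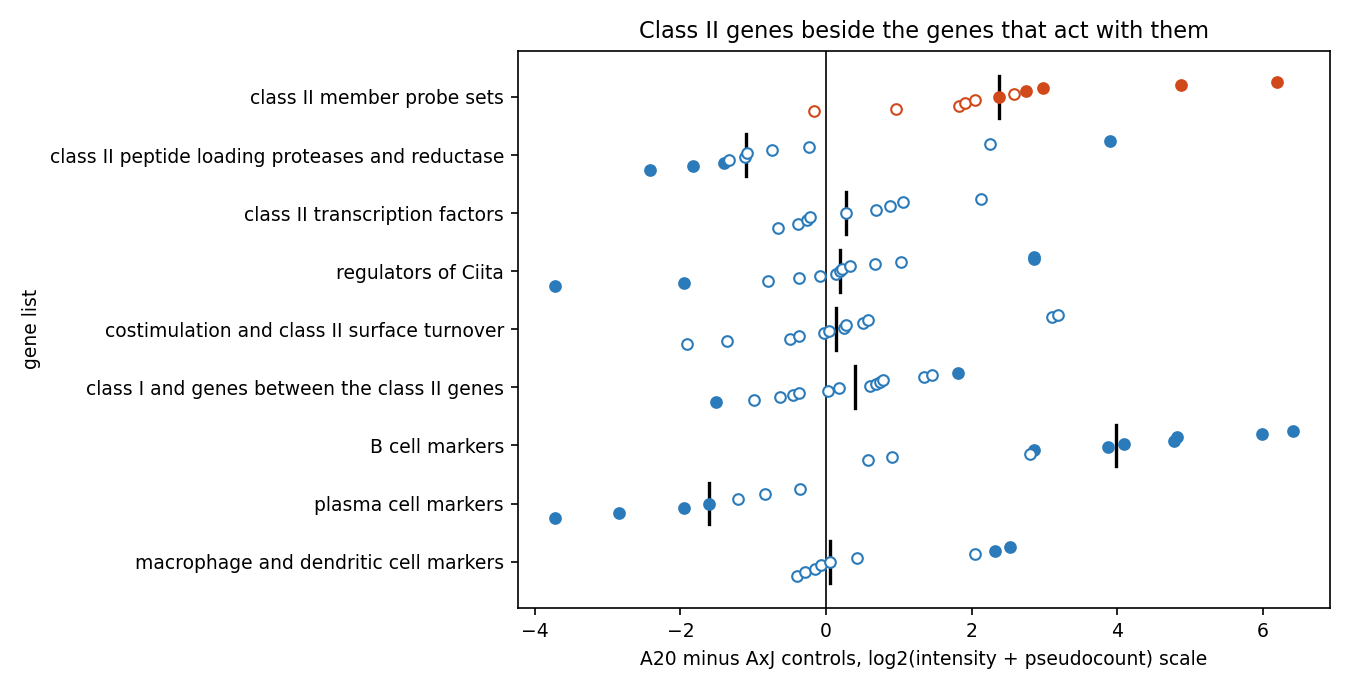
Difference between A20 and the 2 AxJ controls (log2 scale) for the 11 class II probe sets and for each gene tested from 8 lists, filled where the test was passed, with the median of each list as a black line. The class II median lies at 2.37 and that of the B cell markers at 3.98, whereas the endosomal proteases have a median of -1.10.

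The labelled cell types were checked against markers. Of 10 B cell markers tested, 7 passed as higher in A20, and all 10 lay above every AxJ array. Among the 7 were Bcl6 (6.41), Spib (5.99), Ms4a1 (4.82) and Cd22 (4.77). Bcl6, Spib, Cd22 and Cd72, all among the 7, reached the filter level only in A20. Their highest AxJ values were 9.60 to 19.7, so they had to lie higher in A20. Another probe set of Spib differed by 1.25 and did not pass. Of 7 plasma cell markers, 4 passed as lower in A20 (Prdm1, Cd28, Irf4 and Jchain, from -3.72 to -1.60). The Cd28 call was lost without empty vector (0.118), hnRNP-H (0.0757) or D6 (0.0596). The counts were 6 B cell, 2 plasma cell and 1 macrophage marker with no filter, and 6, 1 and 0 with no intensity trend. Fcer2a and Cr2, 2 B cell markers, were under the filter level on all arrays. Macrophages and dendritic cells also carry class II, and the summed level of 11 of their markers was 2416 in A20 against 628 to 970 in the AxJ lines. That sum came mostly from Flt3, at 1578 in A20, and Mpeg1, at 524, which passed (2.33 and 2.52). A second Flt3 probe set, not in the sum, went the other way (-0.54) and did not pass. The Mpeg1 call was lost without empty vector (0.0764) or hnRNP-H (0.0514). Of the other 9, Adgre1 read 32.2 in A20 against 2.62 to 5.37, Ccr7 17.9 against 1.53 to 9.88, and Cd14, Cd68, Itgax, Csf1r and Fcgr1 22.2 to 84.9 in A20, each of these 5 no higher than the highest AxJ array. Itgam read 3.13 and Lyz2 2.42 in A20. The part of such cells in the class II values was not tested. For T cells, 6 of 7 markers lay under the filter level on every array, and their sum was 79.6 in A20 against 61.8 to 138. None of 6 stromal markers passed, and their sum was 330 in A20 against 473 to 644.

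The hnRNP-F clones were compared with the same 2 AxJ controls. None of the 11 class II probe sets passed (limma), beside 0.011% of all probe sets tested. At an unadjusted p under 0.05 there was 1, H2-Oa, against 5.79% of all probe sets. The median difference was 0.23, with 7 of 11 above 0, beside 0.01 over all. Both clones lay above both controls for 2 probe sets (H2-Oa and H2-DMb1), against 18.2% of all, and below them for 2 (H2-DMa 93092_at and the dim H2-Ob), against 19.4%. These shares of the 11 are close to those of the whole array.

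H2-Oa had the largest difference in the clones, at 1.08 (SE 0.42, 2 clones against 2 controls, limma adjusted p = 0.79, 95% interval 0.12 to 2.03), from 18.0 and 15.4 in the controls to 43.0 and 41.7. For its dimer partner H2-Ob all 4 values lay under the filter level, so no direction is read from them. H2-DMb1 differed by 0.45 (-0.63 to 1.52), with 3 of its 4 values under that level, and H2-DMa 93092_at by -0.91 (-1.90 to 0.08). H2-Aa, dim on all 4 arrays, differed by 0.14, with a 95% interval from -0.97 to 1.24, H2-Ea by 0.36 (-0.68 to 1.40) and Cd74 by 0.37 (-0.48 to 1.22). H2-Ab1 differed by 0.61 (-0.66 to 1.88), and without clone B5 by -0.23. H2-Eb1 differed by 0.23 (-1.36 to 1.81), but by -0.67 without empty vector and -0.62 without D6, and Ciita by -0.26 (-1.14 to 0.62). The intervals of H2-Aa, H2-Ea and H2-DMa 93092_at in the clones end below the lower bounds of their intervals in A20, 4.85, 3.59 and 1.16. For the other member probe sets the intervals overlap. H2-Aa entered the test only through A20, and both comparisons use the same controls. How often such a gap occurs over all probe sets was not counted.

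Single arrays were also set side by side, without a test because each has no replicate. The hnRNP-H array was at least 2-fold above empty vector, on the log2(intensity + 6.525) scale, for 3 of the 11 probe sets: H2-Eb1 (1.79), H2-DMa 93092_at (1.17) and Cd74 (1.13), against 9.98% of all probe sets. None was as far below, against 8.17%. Clone D6 was at least 2-fold above clone B5 for H2-Eb1 (1.70), against 6.25% of all probe sets, and as far below it for H2-Ab1 (-1.67), against 5.75%. Counts of 1 among 11 are near these shares. H2-Aa and H2-Ob differed between D6 and B5 by -0.03 and -0.05. The arrays set side by side also differ in Gapdh ratio, 0.866 with hnRNP-H against 0.212 with empty vector, and 0.683 in D6 against 0.181 in B5. The part of RNA integrity in these differences was not tested.

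Over the 5 arrays, the genes with log2 profiles closest to H2-Eb1, the chain probe set with the highest mean log2 intensity, were Ifih1, Abr, Smyd2, Hpcal1 and Recql5, with distances from 0.61 to 0.87 among 6629 genes. Each shared with H2-Eb1 the low values in empty vector and B5, the middle values in hnRNP-H and D6 and the high value in A20, as for Smyd2 with 11.8 and 26.1, then 58.2 and 75.4, then 336. The closest to Cd74 were Neu1, Arhgap1, Mbd3, Prg3 and Net1, at 0.21 to 0.26. Mbd3 read 288 with the empty vector, 600 with hnRNP-H, 501 and 562 in clones B5 and D6, and 777 in A20. In the AxJ lines Ifih1 (1.48 to 18.5) and Prg3 (4.64 to 18.5) stayed under the filter level, and Abr read 2.15 to 24.4. The pseudocount thus enters the profiles of these dim genes. The points are 5 arrays, and the likeness is a description with no test.

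**Figure D5:**
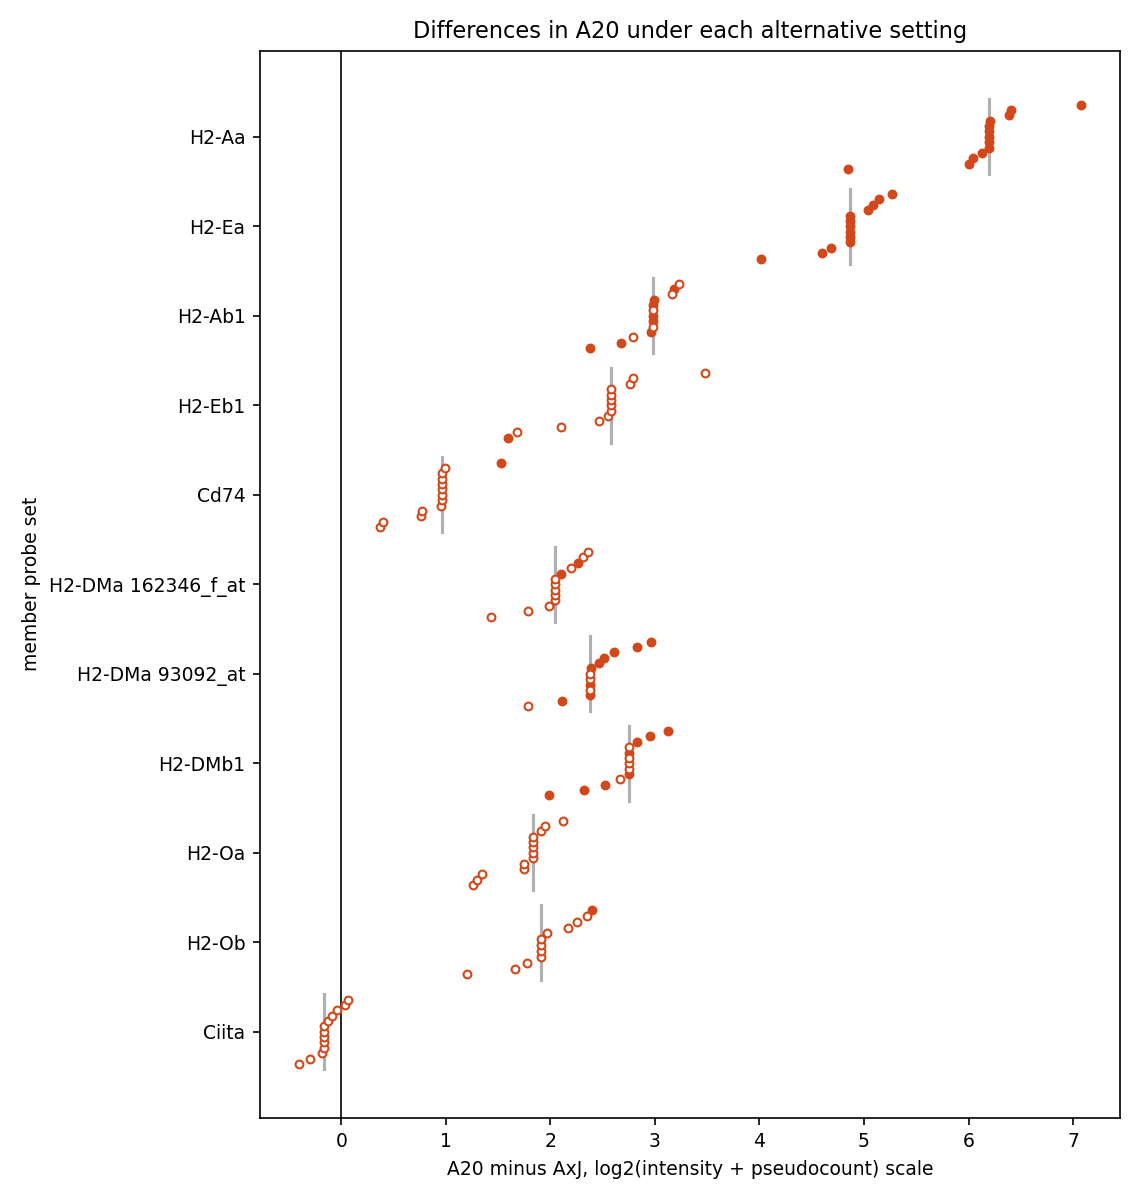
Difference between A20 and AxJ for each member probe set under each alternative setting, 1 point per setting, filled where the test was passed, with the reported value as a grey line. H2-Aa and H2-Ea passed under every setting shown, H2-Oa under none, and Ciita lay between -0.40 and 0.07.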

How the data were processed

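Per the labels' protocols, cells were grown in log phase, polyadenylated RNA was purified on an oligo dT column and labelled with biotin. The authors deposited 1 linear intensity per probe set and array, scaled to a trimmed mean of about 150 per the deposited values. The software and background step: not given in the sources used here. Precision is limited by the number of arrays, and p-values reflect array-to-array spread, which may be technical.

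Symbols came from the 2016 array annotation, updated through gene identifiers. Arrays were quantile normalised without the 66 control probe sets. The pseudocount (6.525) and filter level (21.8) are the 20th and 40th percentiles of the deposited values. Limma 3.58.1 in R 4.3.3 (lmFit, eBayes with intensity trend) was fitted over 5 arrays with 3 coefficients (hnRNP-F clones, AxJ controls, A20), leaving 2 residual degrees of freedom and a prior of 6.46. A20, with 1 array, takes its variance from the AxJ arrays. The script was tested first on simulated data with the same spread on every array, which cannot check the variance that A20 takes over. Of the 2-fold changes put in, 6% were recovered for A20 and 10% for the clones. Of the 8-fold changes it was 94% and 86%. False calls were 14 of 145 for A20 and 13 of 149 for the clones.

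Members, lists and alternatives were chosen with earlier results of these data known. Of 113 list genes, 99 had a probe set, and the brightest stood for a gene. Named were all members and, from each list, up to 4 genes past the threshold by size, otherwise the 2 with the largest statistic. Other list genes given with values (Rfxank, Spi1, Cd80, Cd86, B2m, H2-K1, H2-D1, the macrophage markers, and the neighbours in the class II region) were named for their known role after their values were seen. The 5 closest genes had the smallest Euclidean distance of centred log2 profiles.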

Additional observations from a re-analysis of the deposited data

How the results depend on the processing

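The count of class II probe sets higher in A20 was 5 as reported, where 5.88% of all probe sets passed in either direction. With a pseudocount of 1 it was 4 (5.51% of all probe sets) and with 4 times the pseudocount 5 (6.1%). With the filter at the 60th percentile it was 4 (9.68%). On deposited values it was 5 (6.77%), on arrays scaled to one median 5 (6.08%) and against all 4 AxJ arrays 6 (6.72%). It was 2 when no probe set was filtered out and 2 with eBayes lacking a trend, H2-Aa and H2-Ea both times. It was 8 against hnRNP-H and D6 alone, a fit whose spread comes from those 2 arrays only, so no conclusion is drawn from it. Leaving out 1 AxJ array gave 2 (empty vector) to 5, with 3 without D6. Over all probe sets, 536 passed as reported, 311 unfiltered, 145 without the trend, 1977 against hnRNP-H and D6 alone and 307 to 705 with 1 array left out. The median over all probe sets moved to -0.14 on deposited values. In the hnRNP-F clones no class II probe set passed under any of 12 alternatives, a block of arrays paired by Gapdh ratio included.

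Signs turned in A20 for Ciita against hnRNP-H and D6 alone (0.038) and with 1 array left out (-0.40 to 0.067, above 0 without empty vector), for H2-DMb2 against all 4 AxJ arrays (0.44) and against hnRNP-H and D6 alone (0.020), and for Cd4 without empty vector (0.0079). In the clones, leaving out 1 array gave -0.19 to 0.93 for Cd74, -0.36 to 0.16 for H2-DMa 162346_f_at, -0.059 to 0.33 for H2-Aa and -0.67 to 1.13 for H2-Eb1, turned without empty vector, -0.23 to 1.45 for H2-Ab1 and -0.063 to 0.79 for H2-Ea, turned without B5, and -0.62 for H2-Eb1 without D6. The cause was not tested.

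The labels pair no cultures by number, so the Gapdh pairs are the one block that was run. H2-Ob could not be fitted with the filter at the 60th percentile. All AxJ values of H2-Aa and H2-Ob lay under 21.8, so the pseudocount enters their differences.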
